A study of Mus musculus with 23 samples.

Results

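The change from sorted progenitors to myeloid progenitors, both without Dox, was read from 6 of the 23 arrays of the series. The 3 arrays titled myeloidProg_nodox were set against the 2 arrays titled Prog_nodox and labelled as biological replicates 1 and 2, over all genes. A further array of uninduced progenitors was used apart. Its title marks it as a technical replicate whereas its source name gives it as replicate 3. Because of the title it was not counted as a biological replicate or averaged with the others. It lay on the slide of the myeloid progenitor arrays. All cells came from a mouse embryonic stem (ES) cell line (strain label C57BL/6) that carries a human RUNX1-ETO gene behind a doxycycline (Dox)-responsive promoter in a RUNX1 wild-type background, and none of these 6 samples received Dox. Both groups therefore carried the uninduced transgene, and both came from this line only. The progenitors were CD41+KIT+Tie2- cells sorted from blast culture, in which endothelial cells release blood cells into the medium. The myeloid progenitors were grown from cells of blast culture in a medium with stem cell factor, Flt3 ligand and thrombopoietin. The study describes the cells that were seeded both as floating progenitors of day 2 or 3 and as purified KIT+CD41+ cells, and which of these holds for the arrays is not given in the sources used here. The study used the latter to ask what RUNX1-ETO does in cells that had already left the endothelial stage, and the comparison given here shows how these cells differed before any induction.

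Blood progenitors formed in culture from ES cells first resemble those of the yolk sac, which make primitive red cells, megakaryocytes and macrophages, before neutrophil precursors follow. GATA1 with its cofactor FOG1 (the product of Zfpm1) drives the red cell and platelet lineages, PU.1 (Spi1) and the C/EBP factors drive granulocytes and monocytes, and IRF8 favours monocytes over neutrophils. Stem cell factor signals through KIT and Flt3 ligand through FLT3, and thrombopoietin is the main growth factor of megakaryocytes.

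Levels below are background-corrected, quantile-normalized log2 intensities, so that a difference of 1 is a 2-fold change and a level can be compared between arrays for a gene, not between genes. A gene was called upregulated or downregulated at an unadjusted P value of at most 0.001 in a limma fit and a change of at least 2-fold. A called gene was counted as kept where all 3 myeloid progenitor arrays lay on the same side of the additional progenitor array and their mean differed from it by at least 2-fold. The progenitor arrays 1 and 2 lay on different slides and were scanned on one day, whereas the additional array and the myeloid progenitor arrays shared another slide, scanned on another day. No slide held arrays of both groups. A fit with the slide as a block could separate slide and group only through the Dox-treated progenitors, with 1 array on the slide of the myeloid progenitors and 1 on the slide of progenitor array 1, so that its values rest on that pair. Spots well above background made up 71.0 and 67.5% on the progenitor arrays, 54.7% on the additional array and 51.2 to 63.6% on the myeloid progenitor arrays, and no spot was saturated. On a line through the group means, with 0 for progenitors and 1 for myeloid progenitors and each array left out of its own group mean, the progenitor arrays lay at 0.140 and 0.109, the additional array at 0.245 and the myeloid progenitor arrays at 0.920 to 0.993.

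Of 15202 genes tested, 1064 were upregulated and 1054 downregulated in myeloid progenitors, which is 7.00 and 6.93% of the genes tested and 13.9% in both directions. The adjusted P values of these genes were at most 0.00591. The median change was 1.85 on the log2 scale for upregulated and -1.43 for downregulated genes, beside -0.12 for all genes tested. Against the additional array, 806 upregulated genes (75.8%) and 534 downregulated genes (50.7%) were kept, which is 5.30 and 3.51% of the genes tested. The additional array lay on the myeloid side of the progenitor mean for 657 upregulated (61.7%) and 936 downregulated genes (88.8%). These genes were called with the same progenitor means. Over all genes tested, the median of the additional array minus the progenitor mean was -0.066. When myeloid progenitors were compared with the additional array alone, which leaves the spread to the other groups, 702 genes (4.62%) were upregulated and 385 (2.53%) downregulated. The additional array itself differed from progenitor arrays 1 and 2 in 36 genes that were higher (0.237%) and 8 that were lower (0.0526%). With the slide as a fixed block in the fit, 377 genes were upregulated and 197 downregulated. When arrays were scaled to their 75th percentile instead of quantile normalized, 859 genes were upregulated and 1436 downregulated, so that upregulated genes made up 37.4% of calls rather than 50.2%, and the median of all genes moved from -0.12 to -0.305.

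**Figure D1:**
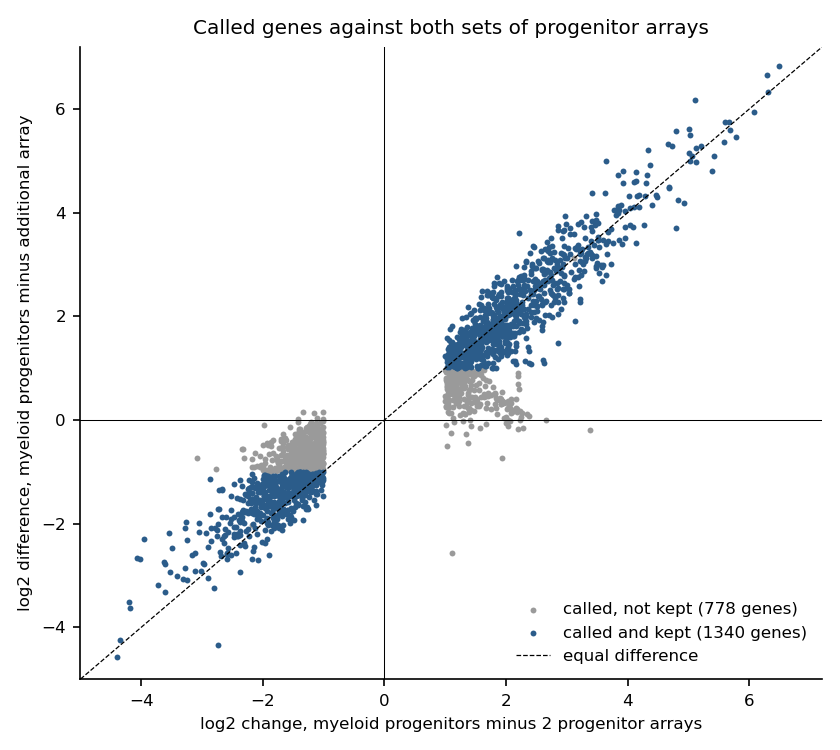
Each point is 1 of the 2118 called genes. The horizontal axis gives the log2 change from the 2 progenitor arrays to the 3 myeloid progenitor arrays and the vertical axis the log2 difference between the same myeloid progenitor arrays and the additional progenitor array. The 806 upregulated and 534 downregulated genes that were kept are blue and the others grey, and the dashed line marks equal differences. The 2 axes share the myeloid progenitor arrays, and the genes were called on the horizontal values. Of the 1054 downregulated genes, 936 lie above the line.

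The cell type markers did not all follow the name of the cells. The erythroid markers Klf1, Epor and Hbb-bh1 and the megakaryocyte markers Gp1bb, Gp9 and Pf4 were upregulated, with the values given below. The summed normalized intensity of 3 macrophage markers (Csf1r, Mpeg1 and Adgre1) was 3993 and 4988 on the progenitor arrays, 5364 on the additional array and 15756 to 27931 on the myeloid progenitor arrays. For 4 neutrophil granule markers (Mpo, Elane, Prtn3 and Ctsg) the sum was lower in myeloid progenitors, with 29441 and 38353 in progenitors, 40626 on the additional array and 7297 to 15496 in myeloid progenitors, but it is led by its brightest gene, Mpo, and Elane and Ctsg were not called. The mast cell markers Mcpt8, Fcer1a and Ms4a2 and the lymphoid marker Rag1 stayed under the filter of 6.5 in all arrays. Cpa3, for a mast cell protease, was at 7.76 and 8.29 in progenitors, 8.05 on the additional array and 7.15 to 7.45 in myeloid progenitors, and was not called (-0.70 ± 0.36). Cd3e, for a chain of the T cell receptor complex, was at 11.84 and 11.38 in progenitors, 10.28 on the additional array and 9.56 to 10.07 in myeloid progenitors, and was not called either (-1.85 ± 0.69). The B cell marker Cd79a was at or below 6.26 on the 6 arrays. Array values of a mixed culture cannot tell whether the number of cells of a type or the RNA in each cell changed.

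Red cell genes had the highest median change among the 23 lists described. Of 20 erythroid genes tested, 17 were upregulated, all 17 were kept and none was downregulated, and the median change of the list was 3.30. Slc4a1, which encodes the band 3 anion exchanger of the red cell membrane, stood at 7.49 and 6.72 in progenitors, 6.77 on the additional array and 12.60, 13.99 and 14.22 in myeloid progenitors. Its change of 6.5 ± 0.52 (SE, adjusted P = 7.73e-08) was the largest rise among the genes kept. Klf1, the erythroid Kruppel-like factor, was at 9.44 and 10.48 in progenitors, 9.99 on the additional array and 13.42 to 13.90 in myeloid progenitors. Alas2, which starts haem synthesis in red cells, rose by 4.73, Rhag by 3.39 and the transferrin receptor gene Tfrc by 3.20. Trim10, a gene of late red cell precursors, rose by 5.20 ± 0.40. Among the 10 largest rises, Add2 for the membrane skeleton protein adducin (6.29 ± 0.27), Kel for the Kell blood group protein (5.61 ± 0.36) and the glutamine transporter gene Slc38a5 (6.08 ± 0.48) are known in red cells too. The embryonic globin gene Hbb-y stood at 12.91 and 12.96 in progenitors and at 18.55 to 18.65 in myeloid progenitors. Hbb-bh1, the other embryonic beta-like globin gene, was already at 17.19 to 17.53 in progenitors and reached 18.73 on all 3 myeloid progenitor arrays, the top of the normalized scale, a change of 1.37. Globin genes are close copies of each other, and probes may take up RNA of a neighbour. With the slide as a fixed block 13 erythroid genes were upregulated, and Gata1 and Epor were among the genes whose call was lost in that fit, at log2 changes of 2.08 and 2.18.

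Megakaryocyte and platelet genes rose as well. Of 24 tested, 14 were upregulated and kept, 1 was downregulated and the median change was 2.53. Pf4, for platelet factor 4, stood at 9.17 and 10.48 in progenitors, 10.41 on the additional array and 14.43 to 14.89 in myeloid progenitors, a rise of 4.83 ± 0.48 (adjusted P = 8.24e-07). Tubb1, the tubulin of the platelet coil, rose from 7.57 and 6.72 to 11.90, 12.23 and 12.08, a change of 4.92 ± 0.47 (adjusted P = 6.19e-07), with the additional array at 7.89. Treml1, a platelet granule receptor, varied between the 2 progenitor arrays (8.21 and 9.85) and lay at 12.95 to 13.45 in myeloid progenitors. Vwf for von Willebrand factor rose by 4.11, and the subunits of the receptor that binds it rose by 3.85 (Gp5), 3.78 (Gp1bb), 2.45 (Gp1ba) and 2.04 (Gp9). Selp, for the adhesion molecule P-selectin, went the other way at -1.46 ± 0.29, and was not kept, at -0.999 against the additional array. Itga2b, which encodes the CD41 used to sort the progenitors, stood at 11.91 and 11.42 in progenitors, 12.35 on the additional array and 14.23 to 14.35 in myeloid progenitors. The groups did not overlap, but its change of 2.61 ± 0.73 was not called (adjusted P = 0.0105). It was called when only the 5 arrays were fitted, and stood at 0.50 under the slide block. With the slide as a fixed block 11 genes of this list were upregulated, and Treml1 was not among them.

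Macrophage genes rose too. Of 26 monocyte and macrophage genes tested, 15 were upregulated, all 15 were kept and none was downregulated, with a median change of 2.11. Ctss, for the lysosomal protease cathepsin S, stood at 5.68 and 4.99 in progenitors, 5.30 on the additional array and 11.34, 12.44 and 11.14 in myeloid progenitors, a rise of 6.31 ± 0.32 (adjusted P = 8.23e-10). Its progenitor values were at the dim end of the scale and well above background on 1 of 2 arrays. Aif1, which encodes the macrophage protein IBA1, rose by 4.41 ± 0.34, and Trem2, a lipid-sensing receptor of macrophages, by 4.18 ± 0.32. Csf1r, the gene for the receptor of the macrophage growth factor, was already at 11.67 and 12.13 in progenitors and 12.25 on the additional array, and lay at 13.65 to 14.39 in myeloid progenitors (2.17 ± 0.36, adjusted P = 0.000228). The complement genes C1qc and C1qb rose by 3.31 and 2.27, Mpeg1 for perforin-2 by 2.96 and Adgre1 for a surface receptor of mature macrophages by 2.48. C1qc, too, was well above background on only 1 of the 2 progenitor arrays. Genes of the list that were not called included Itgam at 0.11, Cd14 at -0.64 and Mrc1 at -0.18. With the slide as a fixed block 12 genes of this list were upregulated, and the call of Csf1r was lost at 1.87.

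**Figure D2:**
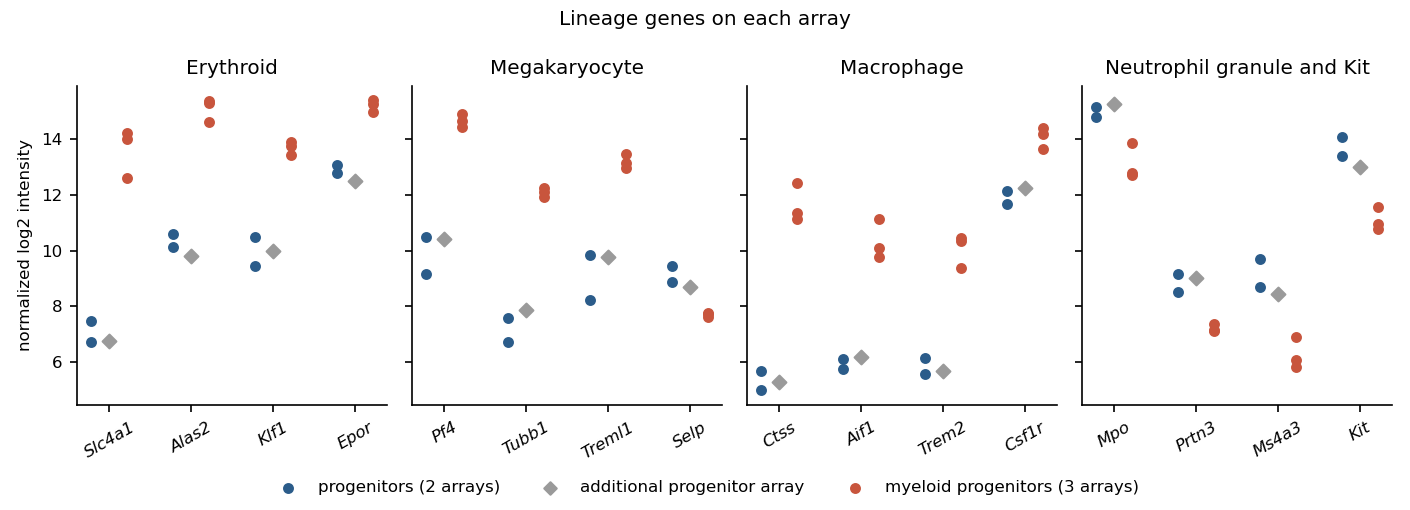
The vertical axis gives the normalized log2 intensity of 4 genes in each of 4 panels. Blue circles are the 2 progenitor arrays, grey diamonds the additional progenitor array and red circles the 3 myeloid progenitor arrays. The myeloid progenitor arrays lie above both kinds of progenitor array for all genes of the erythroid and macrophage panels and for Pf4, Tubb1 and Treml1, and below them for Selp, Mpo, Prtn3, Ms4a3 and Kit.

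Genes that interferon switches on were higher in the cultured cells. Of 19 interferon-stimulated genes tested, 16 were upregulated, all 16 were kept and none was downregulated, with a median change of 2.15. Isg15, a ubiquitin-like protein gene, stood at 12.29 and 11.69 in progenitors, 11.24 on the additional array and 14.93, 15.85 and 16.06 in myeloid progenitors (3.63 ± 0.46, adjusted P = 1.35e-05). Oas1a, for an antiviral enzyme that senses double-stranded RNA, rose from 9.75 and 9.07 in progenitors, with the additional array at 9.12, to between 13.20 and 13.74 (4.03 ± 0.29, adjusted P = 2.88e-08). The rise extended to the factors Irf7 (2.76), Irf9 (2.54) and Stat2 (1.62), while Iigp1, at -0.74, was not called. Under the slide block 12 of these genes were called, and the median of the list was 2.95. Of 13 antigen presentation genes tested, 7 were upregulated, 6 of which were kept. Psmb8 of the immunoproteasome (2.47 ± 0.44), Cd74 (2.47 ± 0.31), the class I gene H2-D1 (2.33 ± 0.41) and Tap1 (1.79 ± 0.35) changed most. With the slide as a block 4 genes of this list were upregulated, and the calls of H2-D1 and Tap1 were lost, at 2.30 and 1.04. Tap1 also lost its call without progenitor array 2 and under 75th percentile scaling, and Psmb8 without progenitor array 2. Of 21 Toll-like receptor and chemokine system genes tested, 8 were upregulated, 7 of which were kept, and none was downregulated. The count was 4 without progenitor array 1, 5 without progenitor array 2, 4 without myeloid progenitor array 2, 4 against the additional array in place of the progenitor arrays, and 3 under the slide block. Cx3cr1, the fractalkine receptor gene, rose from 9.58 and 10.32 to 12.75 and above (3.22 ± 0.33, adjusted P = 1.48e-06), although the additional array, at 10.84, was above both progenitor arrays.

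As examples of upstream stretches that hold a motif, the 150 bases before the annotated start are printed for 5 of the genes named here. They come from the RefSeq promoter table of GRCm38.p6 and are on the strand of the gene. In the same stretch of Hbb-y, Trim10, Treml1, Aif1 and Xaf1, which were upregulated too, none of the motifs counted below was found. Capitals mark AGATAA or its reverse complement, the letters that GATA factors prefer, in Kel (chr6:41704326-41704475, minus strand) and Epor (chr9:21963577-21963726, minus strand). In Isg15 (chr4:156200819-156200968, minus strand), Oas1a (chr5:120907526-120907675, minus strand) and Ctss (chr3:95526636-95526785, plus strand) they mark GAAANNGAA, the core of the element bound by interferon-regulated factors.
Kel: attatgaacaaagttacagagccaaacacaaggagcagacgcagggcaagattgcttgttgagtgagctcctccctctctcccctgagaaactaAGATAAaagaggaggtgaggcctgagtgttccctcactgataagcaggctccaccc
Epor: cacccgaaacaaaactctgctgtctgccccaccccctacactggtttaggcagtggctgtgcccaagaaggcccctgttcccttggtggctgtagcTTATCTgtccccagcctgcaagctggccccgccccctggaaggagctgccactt
Isg15: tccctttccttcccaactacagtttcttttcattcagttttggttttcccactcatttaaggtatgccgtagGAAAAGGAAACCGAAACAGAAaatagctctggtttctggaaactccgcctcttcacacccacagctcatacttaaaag
Oas1a: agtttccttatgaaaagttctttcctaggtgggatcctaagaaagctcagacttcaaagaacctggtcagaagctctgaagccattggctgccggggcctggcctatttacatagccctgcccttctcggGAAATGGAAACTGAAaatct
Ctss: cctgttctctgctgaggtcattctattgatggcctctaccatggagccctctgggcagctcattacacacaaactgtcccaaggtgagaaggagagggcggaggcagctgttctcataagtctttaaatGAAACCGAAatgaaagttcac
Over whole promoters, from 250 bases before to 50 after the start and on both strands, AGATAA was in 11.6% of 1063 promoters of upregulated genes, 6.52% of 1104 promoters of downregulated genes, 7.69% of 15221 promoters of genes tested and 11.2% of all 32851 promoters. It was in 5 of 12 promoters of upregulated erythroid genes and 5 of 12 of upregulated megakaryocyte genes. GAAANNGAA, which was added after the values of these genes were seen, was in 12.2% of promoters of upregulated genes, 5.62% of those of downregulated genes, 7.31% of those of genes tested and 8.56% of all promoters, and in 9 of 17 promoters of upregulated interferon-stimulated genes. For TGTGGT, the RUNX letters, the shares were 15.4, 11.0, 13.2 and 16.8%, in the same order. For TTGCNNAA, the C/EBP letters, they were 9.50, 8.42, 8.88 and 10.8%, and for GAGGAAG, preferred by PU.1, they were 14.6, 13.5, 13.6 and 13.6%. GAGGAAG was in 2 of the 12 erythroid promoters and, like AGATAA, in 5 of the 12 megakaryocyte promoters. TGTGGT was in 4 and 1 of these, TTGCNNAA in 0 and 2 and GAAANNGAA in 2 and 1. Of 12 promoters of upregulated macrophage genes, GAGGAAG and GAAANNGAA were in 4 each, AGATAA and TGTGGT in 3 each and TTGCNNAA in 1. None of these motifs contains another, and a match describes the letters only. No test was made of these shares, since promoters of a gene are not independent.

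Neutrophil granule genes were called in 1 direction only. Of 15 tested, none was upregulated and 3 were downregulated and kept, with a median of -0.61. Over all genes tested, 7.00% were upregulated and 6.93% downregulated, with a median of -0.12. In the list, 6 genes had changes above zero, up to 1.34 for Ctsc, which was not called. Another 7 listed genes, among them S100a8 and S100a9, were under the intensity filter. Mpo, for myeloperoxidase of the primary granules, stood at 14.79 and 15.15 in progenitors, 15.26 on the additional array and 13.85, 12.70 and 12.78 in myeloid progenitors (-1.86 ± 0.41, adjusted P = 0.002). Prtn3, for proteinase 3 of the same granules, was at 8.51 and 9.17 against 7.11 to 7.38 (-1.63 ± 0.36), and Ms4a3, a gene of granulocyte-monocyte progenitors, at 9.68 and 8.70 against 5.82 to 6.89 (-2.93 ± 0.42). Ms4a3 was well above background on only 1 of the 3 myeloid progenitor arrays. The groups overlapped for none of these 3 genes, which held for 1051 of all 1054 downregulated genes. All 3 calls were lost under the slide block, at -2.12, -1.92 and -1.94, and those of Prtn3 and Ms4a3 also under 75th percentile scaling. Without either progenitor array or without myeloid progenitor array 2 or 3 Mpo was not called, and without progenitor array 2 or myeloid progenitor array 2 or 3 Prtn3 was not. Elane, the neutrophil elastase gene, was at 9.30 and 10.24 against 8.82 to 8.98 and was not called (-0.84 ± 0.44). In the list of mast cell, basophil and eosinophil genes, 1 of 15 was upregulated and 1 downregulated. The former was Gzmb, for the cytotoxic protease granzyme B, at 5.80 and 5.28 in progenitors and 9.13 to 9.85 in myeloid progenitors (3.85 ± 0.23, adjusted P = 3.36e-09). The latter was Ltc4s, for leukotriene C4 synthase (-1.94 ± 0.38), whose call was lost without progenitor array 2 and under the slide block, at -1.02. Of 12 early lymphoid genes, Blnk, an adaptor of B cell receptor signalling also found in macrophages (4.68 ± 0.27), and Il7r (2.76 ± 0.29) were upregulated, and Notch3 was downregulated and not kept. Il7r was well above background on only 1 of the 2 progenitor arrays.

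Transcription factor genes were called in both directions. Of 23 stem and progenitor factors tested, 2 were upregulated and 4 downregulated, and of 20 myeloid factors 5 were upregulated and 4 downregulated. Over all genes tested, 7.00% were upregulated and 6.93% downregulated. The medians of the 2 lists were -0.13 and -0.10, beside -0.12 for all genes tested. No stem and progenitor factor was called under the slide block, where 2 myeloid factors were upregulated and 1 downregulated. Gata1 stood at 13.02 and 13.40 in progenitors, 13.08 on the additional array and 15.56 to 15.83 in myeloid progenitors, a rise of 2.47 ± 0.43 (adjusted P = 0.000314). Zfpm1, for FOG1, rose by 1.32 ± 0.33 (adjusted P = 0.00553), and this call was lost when any 1 of the 5 arrays was left out, with the deposited log2 values, under 75th percentile scaling and under the slide block, at 0.74. Gata2 was at 11.76 and 11.36 against 10.38 to 10.66 (-1.01 ± 0.33), which was not called, and the additional array at 10.87 was between the groups. Tal1 (0.44), Fli1 (0.86), Meis1 (0.69), Gfi1 (-0.23) and Myb (-0.43) were not called. Runx1 stood at 14.21 and 14.19 in progenitors, 13.59 on the additional array and 12.70, 12.18 and 12.59 in myeloid progenitors (-1.71 ± 0.40, adjusted P = 0.00312). Erg fell from 9.47 and 9.89 to 6.94, 7.51 and 7.46, by 2.38 ± 0.35 on the log2 scale, with the additional array above the progenitors at 10.23. Zfpm1, Runx1 and Erg each had 2 probes, of which only the 1 given here was called. Runx1t1, the mouse counterpart of the ETO part of the transgene, was at 7.92 and 7.50 in progenitors and 9.28 to 10.52 in myeloid progenitors (2.30 ± 0.37, adjusted P = 0.000172). Its call was lost when only the 5 arrays were fitted and under the slide block, at 1.07.

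Among the myeloid factors, Irf8 and Irf5 were upregulated, while Cebpe and Spi1 were downregulated. Irf8 was at 9.695 and 9.998 in progenitors, 10.15 on the additional array and 11.63 to 12.51 in myeloid progenitors (2.22 ± 0.28, adjusted P = 1.07e-05). Irf5 (2.02) and Maf (1.82) were upregulated and kept as well. Cebpe, needed for the later granules of neutrophils, stood at 9.16 and 9.09 in progenitors, 8.85 on the additional array and 6.601, 6.339 and 6.509 in myeloid progenitors (-2.64 ± 0.23, adjusted P = 2.06e-07). It was called under the slide block too, at -2.17. Spi1 was at 11.05 and 10.58 in progenitors, 10.14 on the additional array and 8.77 to 9.29 in myeloid progenitors (-1.81 ± 0.41, adjusted P = 0.00255). Cebpa (-0.70 ± 0.45) and Cebpb (-1.48 ± 0.48) were lower on all myeloid progenitor arrays than on both progenitor arrays but were not called. The calls of Runx1 and Spi1 were lost under the slide block, at -1.13 and -0.86, without either progenitor array and without myeloid progenitor array 2 or 3, and both were kept only narrowly, at -1.10 and -1.14 against the additional array. The calls of Gata1 and Erg were lost under the slide block as well, at 2.08 and -2.64.

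**Figure D3:**
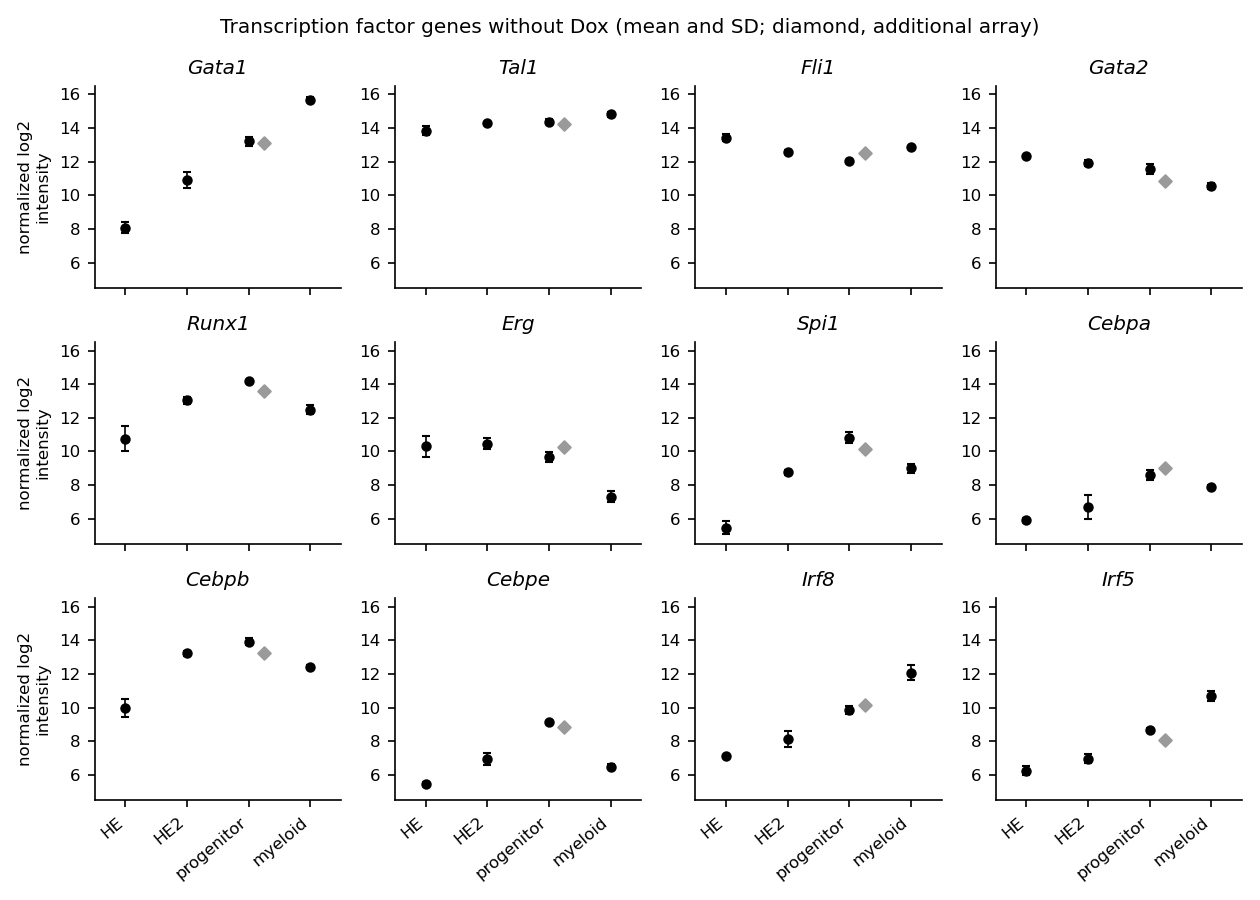
Each panel shows a transcription factor gene in uninduced cells, with the normalized log2 intensity on the vertical axis. Circles and bars give the mean and SD over 3 HE (haemogenic endothelium), 3 HE2 (a following CD41+ stage that still expresses Tie2), 2 progenitor and 3 myeloid progenitor arrays, and the diamond the additional progenitor array. Gata1 and Irf8 have their highest mean in myeloid progenitors, while Runx1, Spi1, Cebpb and Cebpe have theirs in progenitors.

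Among the receptor genes for the growth factors of the medium, Kit stood at 13.37 and 14.06 in progenitors, 12.98 on the additional array and 11.56, 10.96 and 10.78 in myeloid progenitors (-2.61 ± 0.34, adjusted P = 1.52e-05), and the progenitors had been sorted on KIT protein. Flt3 was under the intensity filter. Of 22 cytokine receptor genes tested, 5 were upregulated, 4 of which were kept, and only Kit was downregulated. Epor, for the erythropoietin receptor, rose by 2.27 ± 0.31 and Csf2rb2, the beta chain of the mouse IL-3 receptor, by 2.45 ± 0.44. The latter lost its call without progenitor array 2, where 2 genes of this list were upregulated. The slide block left 1 upregulated. Some genes that respond early to such signals were lower. Of 29 feedback and early response genes, 8 were downregulated and 1, Cish of the STAT5 feedback loop, was upregulated (1.72 ± 0.34), and 5 and 1 of these were kept. Without progenitor array 1 there were 4 and 0, and against the additional array in place of the progenitor arrays 1 and 0. Jund stood at 15.79 and 15.95 in progenitors, 14.50 on the additional array and 12.94 to 13.42 in myeloid progenitors (-2.72 ± 0.33, adjusted P = 1.17e-05). Ier2 fell by 2.79 ± 0.45 and Dusp1, a MAP kinase phosphatase gene, by 2.18. Socs3 (-2.31 ± 0.57) was not kept, at -0.73 against the additional array, and lost its call without progenitor array 1 or any myeloid progenitor array. Fosb, at -4.28, and Fos, at -2.35, were not called. Under the slide block 2 genes of this list were downregulated, and the calls of Kit, Jund, Csf2rb2 and Cish were lost, at -1.92, -1.51, 3.14 and 1.44.

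Of 22 cholesterol synthesis genes tested, 7 were downregulated, 6 of which were kept, none was upregulated and the median was -0.90. Dhcr7, for the last enzyme of the pathway, stood at 11.81 and 12.12 in progenitors, 11.45 on the additional array and 9.46 to 9.87 in myeloid progenitors (-2.29 ± 0.21, adjusted P = 3.71e-07). Hmgcs1, for an early enzyme, was at 15.35 and 15.66 against 13.66 to 14.05 (-1.64 ± 0.21), with the additional array at 15.47, and Fdps at 15.95 and 16.08 against 14.46 to 14.82 (-1.43 ± 0.18). Mvd (-1.74 ± 0.42) lost its call when any 1 of the 5 arrays was left out. Under the slide block only Dhcr7 was called, at -2.07, and the median of the list was -0.83. In the list of lipid handling genes, 4 of 19 were upregulated and 6 downregulated. Lpl, for lipoprotein lipase, rose from 10.75 and 10.61 to 13.81 and above (3.46 ± 0.37, adjusted P = 2.34e-06), and Plin2, for the coat of lipid droplets, by 2.45 ± 0.30. Scd1, for the desaturase that makes monounsaturated fatty acids, stood at 10.44 and 11.26 in progenitors, 10.29 on the additional array and 6.5 to 6.85 in myeloid progenitors (-4.19 ± 0.33, adjusted P = 6.95e-08). Apoc1 (-2.62 ± 0.31) and Apoe (-2.17) were lower too, and the call of Apoc1 was lost under the slide block, at -2.15.

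**Figure D4:**
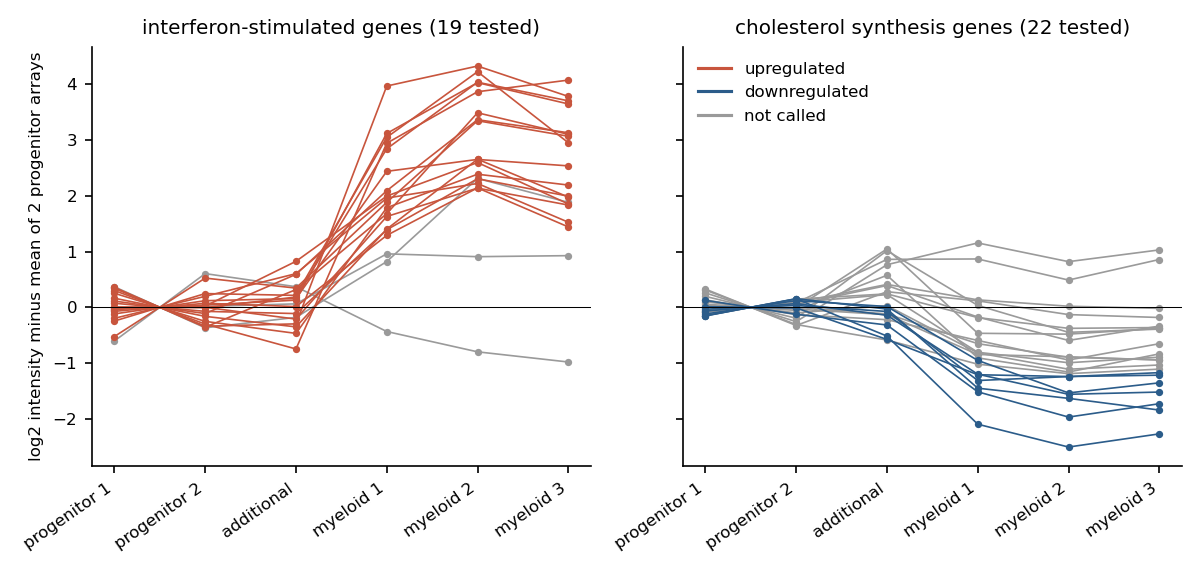
The vertical axis gives the log2 intensity of each gene minus its mean over the 2 progenitor arrays, and the horizontal axis the 6 arrays, whose order within a group has no meaning. Lines join the values of a gene, with upregulated genes red, downregulated genes blue and others grey. The 16 upregulated interferon-stimulated genes (of 19 tested) lie above zero on all 3 myeloid progenitor arrays, and the 7 downregulated cholesterol synthesis genes (of 22 tested) lie below it.

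Among the 10 largest falls, Fzd10, a Wnt receptor gene, stood at 11.36 and 11.79 in progenitors, 11.74 on the additional array and 6.92, 7.30 and 7.30 in myeloid progenitors (-4.40 ± 0.28, adjusted P = 3.79e-09). Unc5c, a netrin receptor gene, fell by 4.34 ± 0.26. Serpinf1, for an inhibitor of blood vessel growth, fell by 4.21 ± 0.31. Lin28a, an RNA-binding protein gene of early embryonic cells, fell by 3.63 ± 0.35. The actin-associated genes Tagln (-4.08 ± 0.53), Acta2 (-3.52 ± 0.48) and Fscn1 (-3.96 ± 0.40) and the matricellular gene Ccn1 (-4.03 ± 0.36) were lower too, and the additional array was below both progenitor arrays for all 4. For Fscn1, for example, it was at 11.39, compared with 13.21 and 12.90 in progenitors and 8.90 to 9.23 in myeloid progenitors. Ptgds (-3.73 ± 0.45) and Ambp (-3.61 ± 0.64) completed the 10 largest falls, and Ambp varied between the progenitor arrays (10.86 and 8.97) and lost its call without progenitor array 1. Ptgds was well above background on only 1 of the 3 myeloid progenitor arrays. Under the slide block Tagln, Ptgds and Ambp were not called, at -2.74, -3.11 and -1.94. In the list of mesenchymal, muscle and epithelial genes, 4 of 17 were downregulated and 1, Tnnt2, was upregulated, and no gene of the list was called under the slide block. The summed intensity of 4 mesenchymal markers (Col1a1, Col3a1, Acta2 and Pdgfrb) was 5826 and 7818 on the progenitor arrays, 4579 on the additional array and 593 to 1312 on the myeloid progenitor arrays. Acta2 made up most of it, and Col1a1 and Col3a1 were at or below 6.84 on all 6 arrays. Of 32 endothelial genes, 3 were upregulated and 2 downregulated, with a median of -0.08. Over all genes tested, 7.00 and 6.93% were, with a median of -0.12. Cdh5, for VE-cadherin, was at 12.58 on both progenitor arrays, 11.67 on the additional array and 9.76 to 11.01 in myeloid progenitors (-2.24 ± 0.29, adjusted P = 1.4e-05). Eng fell by 2.40 ± 0.59, a call lost without either progenitor array or myeloid progenitor array 1 or 3. Stab1, Notch1 and Sox17 were upregulated, at 1.66, 1.44 and 1.42, Notch1 was not kept, and Tek, which encodes the Tie2 that the sort had excluded, was not called (0.53 ± 0.80). No endothelial gene was called under the slide block. Of 13 imprinted growth genes, Igf2 (-2.58 ± 0.58) and Mest (-1.67 ± 0.29) were downregulated and kept, and Igf2r (1.52 ± 0.37) was upregulated and not kept. Igf2 lost its call without either progenitor array or myeloid progenitor array 1, and all 3 lost theirs under the slide block, at -1.14, -1.88 and 0.54.

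Of 29 cell cycle genes, 1 was upregulated and 1 downregulated, with a median of -0.02, and neither Ccnb1 (1.06 ± 0.26) nor Tyms (-1.56 ± 0.26) was kept. None of 24 ribosome biogenesis genes was called, with a median of 0.04 that moved to -0.27 under 75th percentile scaling, where 2 were downregulated. Under that scaling the medians of the lists of CDK inhibitors and p53 targets (0.20 to -0.07), glycolysis and hypoxia genes (0.21 to -0.16), lipid handling genes (0.10 to -0.05) and cytokine receptors (0.15 to -0.04) changed sign as well. Of 16 CDK inhibitors and p53 targets, Gadd45a (2.42 ± 0.27, adjusted P = 3.54e-06) and Trp53inp1 were upregulated. Of 26 glycolysis and hypoxia genes, Vegfa was upregulated (1.91 ± 0.23) and Adm and Ndrg1 were downregulated. Of 22 amino acid and stress response genes, 7 were upregulated and kept. The count was 4 without progenitor array 2 or without myeloid progenitor array 2 or 3, and 3 under the slide block. Trib3, a target of the amino acid response, stood at 10.54 and 10.32 in progenitors, 10.75 on the additional array and 13.34 to 14.23 in myeloid progenitors (3.48 ± 0.33, adjusted P = 4.98e-07), the metallothionein gene Mt2 rose by 2.70 ± 0.32, and Asns and Mthfd2 rose by 1.98 and 1.96. Nqo1 was downregulated and not kept (-1.72 ± 0.32). Under the slide block the calls of Ccnb1, Tyms, Trp53inp1, Adm, Ndrg1 and Nqo1 were lost.

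**Figure D5:**
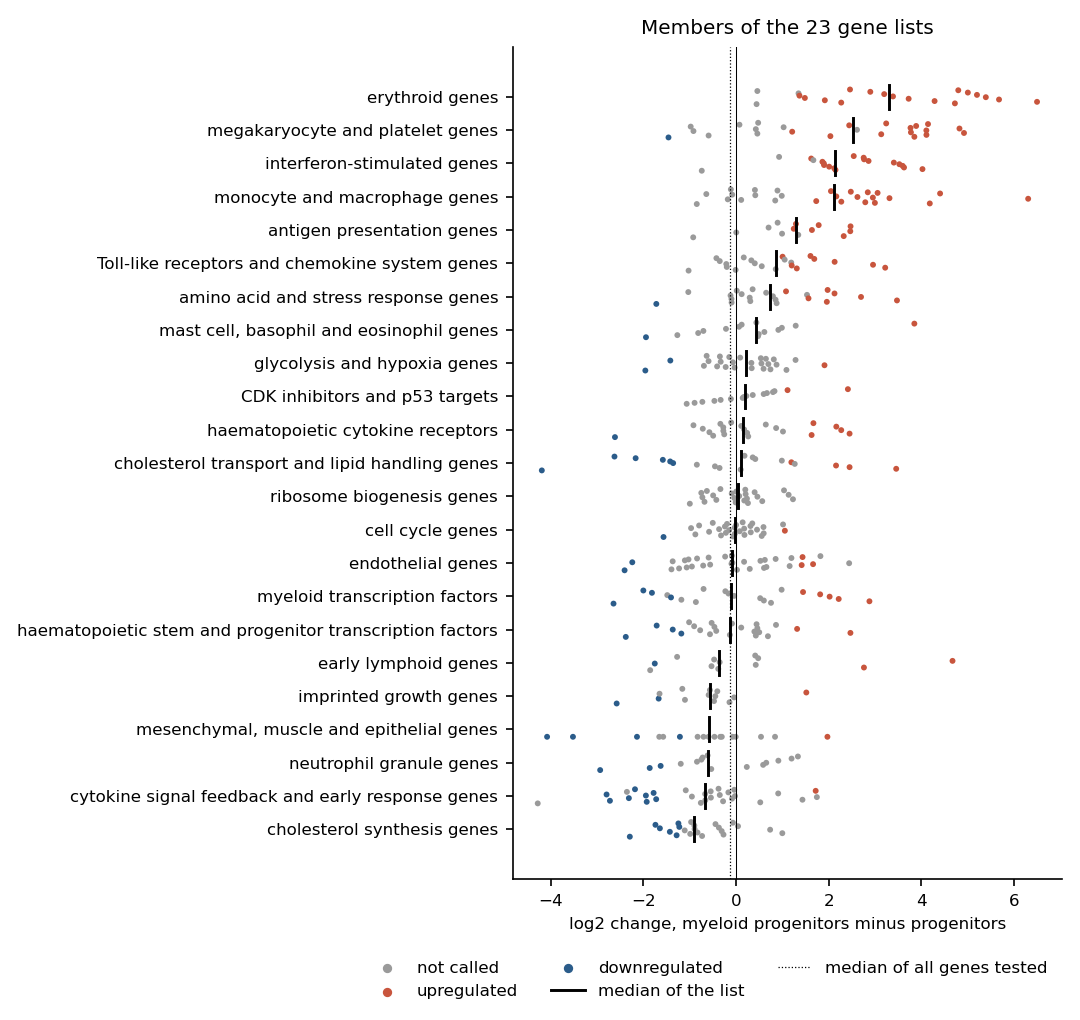
Each point is a tested member of a gene list, placed by its log2 change from progenitors to myeloid progenitors on the horizontal axis, with upregulated genes red, downregulated genes blue and others grey. Black bars are the medians of the lists and the dotted line the median of all genes tested (-0.12). Erythroid (3.30), megakaryocyte (2.53), interferon-stimulated (2.15) and macrophage genes (2.11) have the highest medians and cholesterol synthesis genes (-0.90) the lowest.

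The earlier stages show whether the cultured cells returned to a level seen before. For 693 of the 806 upregulated genes kept (86.0%), all 3 myeloid progenitor arrays were above each of the 6 uninduced HE and HE2 arrays, which held for 2893 of all 15202 genes tested. For 439 of the 534 downregulated genes kept (82.2%) they were below each of these arrays, compared with 4268 of all genes tested. These counts use the myeloid progenitor arrays on which the genes were called. The mean level of Gata1 was 8.07 (HE), 10.91 (HE2), 13.21 (progenitors) and 15.68 (myeloid progenitors). Spi1 had means of 5.47, 8.76, 10.81 and 9.0 in the same order, Cebpe of 5.45, 6.95, 9.13 and 6.48 and Runx1 of 10.76, 13.04, 14.20 and 12.49, so that each was lower in myeloid progenitors than in progenitors and above its HE mean. Slc4a1 (7.19 and 7.15) and Ctss (5.22 and 5.34) were as low in HE and HE2 as in progenitors, whereas Kit, at 12.70 in HE and 13.00 in HE2, was lower in myeloid progenitors (11.10) than at any of the earlier stages.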

How the data were processed

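Total RNA was labelled with Cyanine 3 and hybridized to 1-colour Agilent mouse arrays, with an array for each sample. The authors read scanned images with Agilent Feature Extraction (version 10.7.1.1 in the submitters' processing notes, 10.7.3.1 in the file headers) and deposited spot and local background intensity per array. The deposited log2 values of all arrays, normalized with limma by the authors, served as an alternative, and their Spearman correlation with spot intensity was 0.941 or higher. The median spot and background intensity was taken, where a mean had been planned.

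Background was corrected with normexp (offset 16, limma 3.58.1, R 4.3.3 and version 1.17.8 of data.table). After 3671 control spots and outlier spots were left out, 59305 spots per array were quantile normalized over 23 arrays on the log2 scale and averaged per probe. Of 55681 probes, 26582 matched a RefSeq symbol (GRCm38.p6, names only), for 20145 genes. The probe with the highest mean stood for a gene, and genes at 6.5 or above on at least 1 array were tested (15202). The limma fit took 22 arrays with a mean per group (14 residual degrees of freedom), without the additional array, and P values were adjusted by the Benjamini-Hochberg method over all genes tested. SE is the moderated standard error of the change. On simulated data of 15202 genes, 200 of which had a change of 1.5 (log2), 158 (79%) were recovered and 10 unchanged genes were called. The simulated noise was independent between arrays and held no slide or scan day effect. In the data both coincide with the groups, so these counts give no error rate for the comparison itself. Motif counts and plots used Python 3.11.15, pandas 2.3.3 and matplotlib 3.10.9.

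Groups were taken from the sample titles. The titles name biological replicates but not whether cultures were separate. P values measure the spread between samples of a group, pooled over all 22 arrays of the fit and not only the 5 compared. With only these 5 arrays fitted, 999 genes were upregulated and 1137 downregulated, of which 838 and 887 were called in the main fit. Genes named by rule were the 10 largest changes kept in each direction, the 4 largest changes of each list (2 in each direction where both exist) and a fixed set of factors, receptors and granule genes. Other list members that are named, and Kel as a promoter example, were picked after their values were seen. The groups compared, the lists and the rule were chosen with earlier results of these data known. Alternatives covered background correction, normalization, filter, probe choice, threshold, arrays in the fit, slide, scan day and each replicate left out. There were 0 columns of other samples. Some genes and the marker sums that hold them are not reported here.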

Additional observations from a re-analysis of the deposited data

How the results depend on the processing

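The slide and the scan day, which separate the myeloid progenitor arrays from the progenitor arrays alike, moved all 4 counts by over 1.5 times. With the slide as a fixed block, 377 genes were upregulated and 197 downregulated, of which 327 and 110 were among those called without it, and 354 and 118 were kept against the additional array. With the scan day as a block the counts were 373 and 209, with 346 and 127 kept. With the additional array in place of the 2 progenitor arrays they were 702 and 385, and with it added to the progenitor arrays together with the slide block 869 and 533. An adjusted P of at most 0.001 left 660 downregulated genes, and a 2-fold change without a P value gave 1720. When each of the 5 arrays was left out in turn, upregulated genes numbered 731 to 986, downregulated genes 711 to 892, upregulated genes kept 615 to 782 and downregulated genes kept 416 to 524. Without progenitor array 1 or 2, the remaining progenitor array was assumed to vary like the other groups. Replicate numbers 1 and 2 occur in both groups, and the deviations of same-numbered arrays from their group means had correlations of -0.17 and -0.13. The 2 progenitor arrays deviate from their mean in mirror image and lie on different slides. These values are therefore not independent, and cannot tell whether same-numbered samples shared a culture. The replicate block gave 907 upregulated and 831 downregulated genes, with 743 and 481 kept.

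Among the genes named by rule, 95 were called, of which 40 had the same call under every alternative tried and 0 changed sign. No spot was saturated, and for 58 upregulated genes the progenitor arrays, and for 28 downregulated genes the myeloid progenitor arrays, were not well above background, so that their changes are bounds.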

Other observations

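Among the 58 upregulated genes that were not well above background on the progenitor arrays, 50 were kept against the additional array, and the median of their bounds was 3.15-fold. Among the 28 downregulated genes not well above background in myeloid progenitors, 15 were kept, with bounds of 1.73- to 5.29-fold and a median of 2.42-fold. Of the called genes, 32 that were upregulated and 9 that were downregulated are not annotated as protein coding. Different probes of a gene were called in opposite directions for 5 of the 622 called genes with more than 1 probe. Besides Zfpm1, Runx1 and Erg, only 1 of 2 probes was called for Notch1, Csf2rb2 and Trp53inp1, and 1 of 3 for Ccnb1.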
